A study of Mus musculus with 9 samples.

Results

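The genes described here are 10 members of the activin and TGF-beta branch of the TGF-beta family: 7 ligand genes (Mstn, Gdf11, Inhba, Inhbb, Tgfb1, Tgfb2 and Tgfb3), 2 genes of secreted ligand-binding inhibitors (Fst and Fstl3) and 1 receptor gene (Acvr2b). They were listed by symbol and found by Ensembl identifier, 10 of the 47729 genes in the deposited count table. The samples came from C2C12, a widely used mouse myoblast cell line that fuses into myotubes once growth serum gives way to horse serum. CRISPR-Cas9 had been used against the circadian clock gene Per1 (Per1KO) or Per2 (Per2KO), and the control, labelled WT, had received a non-target sgRNA. Whether a population is 1 clone or a pool is not given in the sources used here. Each of the 3 populations was sampled undifferentiated in 10% FBS (day 0) and after 3 and 5 days of 5% horse serum. Each population and day gave 1 poly(A) library, 9 libraries in all.

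Ligands of this branch are made as dimeric precursors that are cleaved and often held latent in the matrix. They bind type II receptors such as ACVR2A, ACVR2B and TGFBR2, which activate type I receptors that phosphorylate SMAD2 and SMAD3. Myostatin (Mstn) restrains muscle mass, TGF-beta 1 to 3 and the activins can hold back myoblast differentiation, and follistatin (Fst) binds and blocks activins and myostatin.

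WT libraries held 5020385 to 6773320 counts and knockout libraries 41997763 to 48051824, a mean ratio of 7.82. The WT titles alone carry a further suffix, whose meaning the titles do not state. For both knockouts depth, whatever the suffix marks and genotype cannot be told apart. Levels are TMM-scaled CPM, counts relative to the scaled size of the library, with exact 95% intervals that cover counting error only. In Per1KO, Per1 stood at 20.8 to 32.4 CPM, against 31 to 35.5 in WT and 16.4 to 32.9 in Per2KO. Per2 stood at 3.5 to 9.11 CPM in Per2KO, against 9.73 to 20.4 in WT and 6.58 to 10.6 in Per1KO. Target mRNA did not separate the knockouts, so the names are those of the labels, and the edited sequences were not analysed here. The labels give the tissue as whole muscle and the line as C2C12. All 6 myoblast markers were at 1 CPM or more in every library. Of 5 markers each, that level was reached in any library by 0 for adipocytes, 1 for osteoblasts (Runx2), 1 for endothelium, 1 for macrophages and 2 for Schwann cells.

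Of the 10 genes, 8 reached 1 CPM in at least 3 libraries and were tested, as were 13324 genes in all (27.9% of the table). The other two, Mstn and Acvr2b, were barely detected. Mstn (ENSMUSG00000026100, chromosome 1, 53061640 to 53068079, plus strand, GRCm38) had 0 counts in the 3 WT and 3 Per2KO libraries and on day 0 in Per1KO, and 1 count each on days 3 and 5 in Per1KO. Those 2 counts stand among 292140191 in all libraries together. Taking 3 counts as the limit that a 0 leaves, Mstn could have stood at up to 0.423 to 0.659 CPM in WT and 0.059 to 0.073 CPM in Per2KO, so the shallow WT libraries set a looser limit. Myostatin mRNA was therefore not detectable beyond single reads in any population or on any day, and no difference can be read from it.

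The 250 bases before the start of Mstn (RefSeq, GRCm38.p6, chr1:53061390-53061639, plus strand) are shown because this promoter is a known target of muscle basic helix-loop-helix factors, whose E-box is CANNTG. The pattern CANNTG, with N any base, fits both strands at the same place, and CACGTG is 1 form of it. Capitals mark the 4 CANNTG matches, which begin 229, 174, 52 and 19 bases before the start. Of 32851 RefSeq promoters of this length, 66.2% hold at least 1 such match, so the presence of one is common.
Mstn: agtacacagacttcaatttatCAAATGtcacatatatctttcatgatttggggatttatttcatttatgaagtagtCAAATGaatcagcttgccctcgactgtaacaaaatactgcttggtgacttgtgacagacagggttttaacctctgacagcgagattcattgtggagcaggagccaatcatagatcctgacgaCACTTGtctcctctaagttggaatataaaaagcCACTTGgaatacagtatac

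Acvr2b (ENSMUSG00000061393, chromosome 9, 119402118 to 119434995, plus strand) encodes an activin and myostatin type II receptor. It had 7, 3 and 4 counts in WT on days 0, 3 and 5, then 39, 31 and 32 in Per1KO and 45, 32 and 22 in Per2KO. These are levels of 0.535 to 0.987 CPM, and all 9 counting intervals overlapped. A difference between populations was not detectable at this depth: on day 0 the Per1KO level was 0.8 times that of WT, with a 95% counting interval of 0.354 to 2.12.

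Levels of different genes were compared per kilobase of the longest GENCODE transcript. By the median over the 9 libraries, Tgfb3 was highest at 39.5 CPM per kilobase, followed by Tgfb1 at 21.6, Inhbb at 18.5, Fst at 15.5 and Gdf11 at 14.1. Lower medians belonged to Fstl3 (5.77), Tgfb2 (5.09), Inhba (2.59), Acvr2b (0.242) and Mstn (0). Neighbours in this order from Tgfb3 to Inhba overlapped in their ranges over libraries. Within libraries some pairs changed places, as Tgfb1 (30.9) lay above Tgfb3 (23.4) in WT on day 0. Tgfb2 lay above Inhba in every library. Acvr2b lay apart, since its highest value, 0.311, was below the lowest of Inhba, 1.94.

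**Figure D1:**
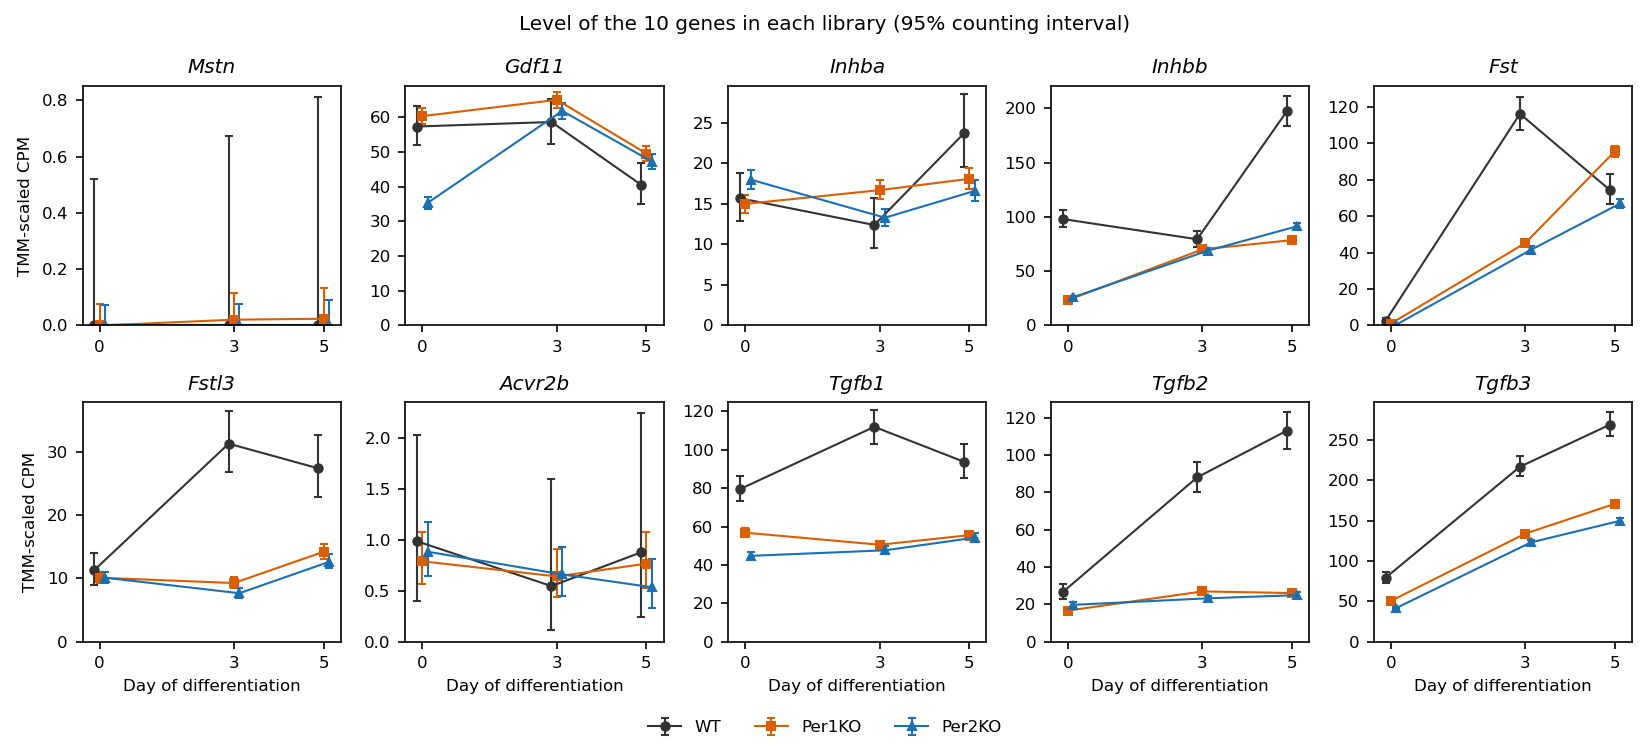
Level of each of the 10 genes, in TMM-scaled CPM (linear axis from 0), against the day of differentiation in WT (black circles), Per1KO (orange squares) and Per2KO (blue triangles). Each point is 1 library with its 95% counting interval, and each panel has its own scale. Tgfb1 lies below WT in both knockouts on every day, Tgfb2 in WT climbs away from both knockouts, and all points of Mstn and Acvr2b are under 1 CPM.

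Knockouts were compared with WT to ask how loss of either clock gene went with the level of these genes across the 3 days. The test was edgeR's quasi-likelihood test in an additive model of genotype and day over all 9 libraries, adjusted over 13324 genes and called at an adjusted p under 0.05. Days stand in for replicates there, so a p-value speaks of these populations only. In Per1KO, 4 of 8 genes were called lower (Tgfb1, Tgfb2, Tgfb3 and Inhbb), where 10.1% of all genes tested were. In Per2KO, 5 of 8 were called lower, those 4 and Fstl3, where the share of all genes was 10.6%. By edgeR and DESeq2 alike 0 of 8 were called higher, also at an unadjusted p under 0.05, against backgrounds of 9.26% and 9.31%. The median log2 difference of the 8 genes was -0.73 in Per1KO and -1.05 in Per2KO, beside -0.02 and -0.01 over all genes tested. Both knockouts were set against the same WT libraries, so the 2 results are not independent of each other. The 10 genes were chosen with earlier results of these data known. Their counts and medians set against all genes, here and below, are therefore a description and no independent test. In such bulk RNA, fewer cells of a type and less RNA per cell cannot be told apart.

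Tgfb1 (ENSMUSG00000002603, chromosome 7, 25687002 to 25705077, plus strand), the most studied TGF-beta ligand, was at 79.5, 112 and 93.8 CPM in WT on days 0, 3 and 5. It was at 56.8, 50.5 and 55.5 CPM in Per1KO and at 44.7, 47.6 and 54.2 CPM in Per2KO. All 6 knockout levels lay below all 3 WT levels, and the pair of libraries furthest apart was that of day 3. Its log2 difference from WT was -0.80 ± 0.14 (SE) for Per1KO (adjusted p 0.00794) and -0.96 ± 0.15 for Per2KO (0.00342), which is 1.74-fold and 1.94-fold lower. The Per1KO call was lost without day 3 (-0.62, adjusted p 0.0759) and without day 5 (-0.82, 0.0971).

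Tgfb3 (ENSMUSG00000021253, chromosome 12, 86056745 to 86079041, minus strand) was at 79.2, 217 and 269 CPM in WT. It was at 50.5, 134 and 171 CPM in Per1KO and at 41.7, 123 and 150 CPM in Per2KO. On each day the order was WT, Per1KO, Per2KO, with counting intervals that did not overlap. The gap to WT was alike on all days: Per1KO stood 1.57-fold lower on day 0 (95% counting interval 1.43 to 1.72), 1.62-fold on day 3 (1.52 to 1.73) and 1.58-fold on day 5 (1.49 to 1.68). In the fit the difference was -0.67 ± 0.10 in Per1KO (adjusted p 0.00319) and -0.86 ± 0.10 in Per2KO (0.00105). Leaving out day 5 kept the Per1KO value at -0.67 and ended its call (0.0807). Ttll5, a protein-coding gene on the opposite strand, overlaps Tgfb3 in position and was at 33.2 to 67.4 CPM. By longest transcripts it shares no 31-mers (stretches of 31 bases) with Tgfb3. Of the Tgfb3 31-mers, 9.96% occur in other genes, Gm48008 and Gm37804, which also lie on the opposite strand. Since use of strand in the counting is not given, part of the Tgfb3 counts is uncertain.

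Tgfb2 (ENSMUSG00000039239, chromosome 1, 186622792 to 186705989, minus strand) had the largest fitted difference of the 8 genes in both knockouts. It was at 26.5, 88.0 and 113 CPM in WT on days 0, 3 and 5. Per1KO had 16.6, 26.9 and 26.0 CPM, and Per2KO had 19.7, 23.2 and 24.9 CPM. WT on days 3 and 5 stood above all other libraries, while WT on day 0 lay among the knockout libraries of days 3 and 5, with overlapping intervals. The single-day ratio therefore widened, from 1.59-fold lower in Per1KO on day 0 (1.35 to 1.87) to 3.27-fold on day 3 and 4.33-fold on day 5 (3.89 to 4.81). In Per2KO it was 1.35-fold, 3.79-fold and 4.53-fold lower. The fit over all days put Per1KO at -1.58 ± 0.31 (log2, adjusted p 0.0117) and Per2KO at -1.57 ± 0.31 (0.0121). Both calls were lost without day 3 and without day 5, where the values ranged from -1.21 to -1.49 and the adjusted p from 0.122 to 0.151, and that of Per2KO was lost with the 6 libraries compared alone (-1.53, 0.0616).

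Promoter sequences from RefSeq were matched for 8 of the 10 genes, all but Fst and Tgfb3. Among these 8, Tgfb2 was the gene with a CACGTG, the E-box form that the clock factors CLOCK and BMAL1 bind, and its promoter is shown for that reason (chr1:186705990-186706239, minus strand, GRCm38.p6). Capitals mark the match, which begins 51 bases before the start and reads the same on both strands. This match occurs in 6.02% of the 32851 promoters. The SMAD-binding letters CAGACA, searched on both strands, occur in the promoters of Tgfb2, Fstl3 and Mstn and in 17.1% of all promoters. No binding was measured here.
Tgfb2: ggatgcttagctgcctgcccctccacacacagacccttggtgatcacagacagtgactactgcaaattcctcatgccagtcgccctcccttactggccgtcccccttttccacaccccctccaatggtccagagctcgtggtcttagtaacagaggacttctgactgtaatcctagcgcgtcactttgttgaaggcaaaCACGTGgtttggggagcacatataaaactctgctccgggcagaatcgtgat

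Inhbb (ENSMUSG00000037035, chromosome 1, 119415465 to 119422248, minus strand) encodes the activin beta B subunit. It was at 98.0, 79.4 and 197 CPM in WT, at 23.4, 70.1 and 78.6 CPM in Per1KO and at 26.1, 68.9 and 91.4 CPM in Per2KO. The knockouts were far below WT on day 0, by 4.19-fold (3.81 to 4.61) and 3.76-fold (3.43 to 4.12), and close to it on day 3, by 1.13-fold (1.02 to 1.25) and 1.15-fold (1.04 to 1.27). On day 5 they were 2.51-fold and 2.16-fold lower. The additive difference was -1.25 ± 0.33 in Per1KO (adjusted p 0.037) and -1.14 ± 0.33 in Per2KO (0.0471). Both calls ended without day 0, where the values were -0.79 and -0.71 (adjusted p 0.102 and 0.121), and without day 5, where they were -1.21 and -1.16 (0.227 and 0.229). They also ended without the filter on low counts (0.118 and 0.146) and with the 6 libraries compared alone (0.0969 and 0.114), and that of Per2KO with upper-quartile scaling (0.0513) and with knockout libraries thinned to WT depth (0.0717).

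Inhba (ENSMUSG00000041324, chromosome 13, 16011851 to 16031621, plus strand), the activin beta A subunit, was at 15.7, 12.4 and 23.7 CPM in WT, 15.0, 16.7 and 18.1 CPM in Per1KO, and 18.0, 13.3 and 16.6 CPM in Per2KO. The groups overlapped, and the fitted differences of -0.02 ± 0.20 and -0.08 ± 0.20 (adjusted p 0.962 and 0.811) did not pass. By single days, Inhba on day 5 was 1.31-fold (1.06 to 1.61) and 1.43-fold (1.16 to 1.76) below WT in Per1KO and Per2KO. On day 3 Per1KO had 1.35 times the WT level (1.05 to 1.76), and the other intervals included equality. In the additive fit the 2 activin subunits thus gave different readings, Inhbb called lower and Inhba with no difference detected. On day 5 both subunits were lower in both knockouts. The difference between the 2 genes was not tested.

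Gdf11 (ENSMUSG00000025352, chromosome 10, 128882295 to 128891718, minus strand) is the closest relative of myostatin. In contrast to Mstn it was readily detected, with 185 to 3148 counts in a library. It was at 57.4, 58.7 and 40.6 CPM in WT, 60.4, 65.1 and 49.6 CPM in Per1KO, and 35.4, 61.9 and 47.3 CPM in Per2KO. The Per2KO library of day 0 was the lowest of the 9, 1.62-fold below WT of that day (1.45 to 1.81). Over the 3 days the differences were 0.16 ± 0.18 in Per1KO (adjusted p 0.574) and -0.13 ± 0.18 in Per2KO (0.665), and neither passed.

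Of the inhibitors, Fstl3 (ENSMUSG00000020325, chromosome 10, 79777272 to 79782630, plus strand), a follistatin-like activin and myostatin binder, was at 11.3, 31.3 and 27.4 CPM in WT. It was at 10.1, 9.26 and 14.2 CPM in Per1KO and at 10.1, 7.65 and 12.6 CPM in Per2KO. On day 0 the 3 populations had overlapping intervals, and on day 3 the knockouts were 3.38-fold (2.82 to 4.04) and 4.1-fold (3.4 to 4.92) below WT. The additive difference passed in Per2KO (-1.16 ± 0.32, adjusted p 0.0394) and missed in Per1KO (-1.03 ± 0.32, 0.058), where it passed without day 0 (-1.39, 0.0164) and with DESeq2 (-1.02, 0.0134). In Per2KO it was lost without day 3 (-0.67, 0.217), without day 5 (-1.18, 0.218), with the 6 libraries alone (-1.12, 0.118), without the filter on low counts (-1.08, 0.0582) and with knockout libraries thinned to WT depth (-1.01, 0.0909). Fstl3 shares 58.4% of its 31-mers with Prss57 on the opposite strand, a gene with at most 2 counts in any library, and its count is uncertain for that reason.

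Fst (ENSMUSG00000021765, chromosome 13, 114452290 to 114458951, minus strand), follistatin itself, was at 2.54, 116 and 74.4 CPM in WT, 1.03, 45.2 and 95.5 CPM in Per1KO, and 0.472, 41.4 and 66.9 CPM in Per2KO. On days 0 and 3 both knockouts were below WT, by 2.56-fold (2.34 to 2.79) and 2.79-fold (2.55 to 3.06) on day 3. On day 5 the Per1KO library was above WT, 1.28 times its level (1.15 to 1.44), and the interval of Per2KO included equality (0.803 to 1.01). The additive difference, which takes the 3 days together, did not pass in Per1KO (-0.66 ± 0.39, adjusted p 0.271) or Per2KO (-1.14 ± 0.38, 0.0764). It passed in Per2KO without day 5 (-1.77, 0.0291) and with DESeq2 (-1.29, 0.00573).

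Markers of other states moved with the populations. The 7 myotube markers summed to 627 CPM in WT on day 0, against 33.6 CPM in Per1KO and 15.7 CPM in Per2KO. On day 5 their sum was highest in WT (18458 CPM) and lowest in Per2KO (8870 CPM). The 5 fibroblast and fibro-adipogenic markers summed to 4854 to 14254 CPM in WT, 1775 to 6086 CPM in Per1KO and 1962 to 5425 CPM in Per2KO. Of these 5, 4 reached 1 CPM in some library, 3 did in all, and Thy1 stayed under 1 CPM in every library. The part of these markers in the differences from WT was not tested.

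**Figure D2:**
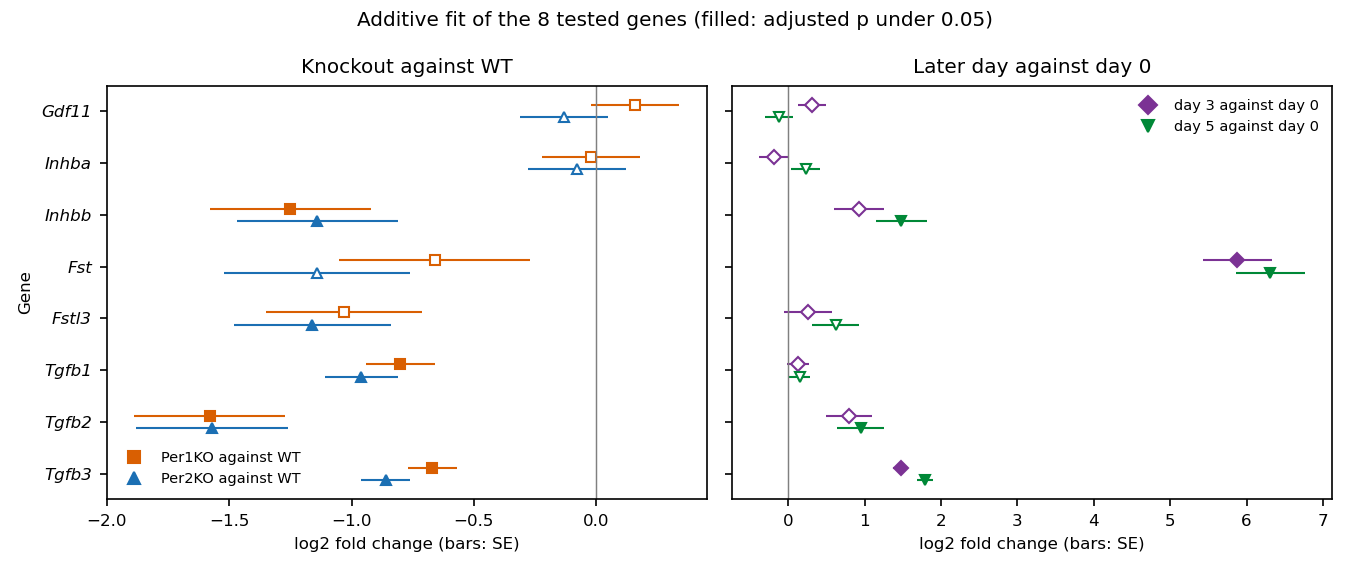
Additive log2 fold changes of the 8 tested genes with their standard errors, each knockout against WT on the left and days 3 and 5 against day 0 on the right. Filled symbols passed an adjusted p of 0.05. On the left Gdf11 and Inhba sit near 0 and the TGF-beta genes at -0.67 to -1.58, and on the right Fst stands at 5.88 and 6.31, far from the rest.

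Differentiation was compared within the 3 populations, so that the depth gap does not follow the contrast. The populations, which differ in genotype, stand in for replicates of a day there. The additive fit gives them a common day effect, so a p-value speaks of these populations only. On day 3 against day 0, 2 of 8 genes were called higher, Fst and Tgfb3, where 18.1% of all genes were. On day 5, 4 of 8 were called higher, Fst, Tgfb3, Inhbb and Tgfb2, where 23.2% of all genes were. With edgeR and DESeq2, 0 of 8 were called lower on either day, also at an unadjusted p under 0.05, against 16.9% and 22.9% of all genes. The medians of the 8 genes were 0.55 and 0.79 on the log2 scale, beside -0.01 and -0.01 over all genes tested.

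Fst had the largest change. It rose by 5.88 ± 0.45 on day 3 (adjusted p 0.000154) and 6.31 ± 0.45 on day 5 (4.7e-05), from 18, 51 and 24 counts on day 0 in WT, Per1KO and Per2KO. On day 5 the ratio to day 0 was 29.3 in WT (18.3 to 50.1), 92.4 in Per1KO (70.2 to 124) and 142 in Per2KO (95.1 to 222). From day 3 to day 5 the WT level was 0.644 times as high (0.562 to 0.735), where Per1KO had 2.11 times (2 to 2.22) and Per2KO 1.62 times (1.52 to 1.71) the earlier level. The peak of follistatin mRNA was thus on day 3 in the WT libraries and on day 5 in both knockouts. This is 1 library per point and has no replicate check.

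Tgfb3 rose by 1.47 ± 0.10 on day 3 (adjusted p 9.47e-05) and 1.79 ± 0.10 on day 5 (1.55e-05). Its ratio of day 5 to day 0 was 3.4 in WT (3.07 to 3.76), 3.37 in Per1KO (3.22 to 3.53) and 3.61 in Per2KO (3.43 to 3.79), with overlapping intervals. Its standard error was the smallest of the 3 TGF-beta genes. Tgfb1 changed by 0.13 ± 0.14 and 0.15 ± 0.14 on days 3 and 5, which did not pass (adjusted p 0.503 and 0.403).

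Inhbb was called on day 5 (1.48 ± 0.33, adjusted p 0.00813), a call lost without Per1KO (1.36, 0.0726) and without Per2KO (1.32, 0.0785). Its day 3 value of 0.93 ± 0.33 missed (0.0625) and reached 1.49 (5.95e-05) in the knockout libraries alone. The WT level of day 3 was 0.81 times that of day 0 (0.717 to 0.915). Tgfb2 was called on day 5 (0.95 ± 0.31, adjusted p 0.0362). That call was lost without Per1KO (1.13, 0.147), without the filter on low counts (0.94, 0.0785) and with thinned knockout libraries (0.94, 0.0636), and the knockout libraries alone gave 0.49 (0.0167). Its day 3 value of 0.80 ± 0.30 missed (0.0761), and the knockout libraries alone gave 0.46 (0.0222). Fstl3, Inhba and Gdf11 did not pass on either day, but without WT Fstl3 passed on day 5 (0.41, 0.0281).

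All 7 myotube markers reached 1 CPM in some library and 4 did in all. Their sum was 15.7 CPM (Per2KO) to 627 CPM (WT) on day 0 and 8870 CPM (Per2KO) to 18458 CPM (WT) on day 5. The part of the share of differentiated cells in these changes was not tested. Between days 5 and 3, edgeR called 0 of 8 genes, with 2 at an unadjusted p under 0.05 (Tgfb3 and Gdf11) and 1 called by DESeq2. Over all genes the share was 1.79%, and the 8 values ranged from -0.43 to 0.55.

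Whether the change from day 0 to days 3 and 5 differed between the knockouts and WT was tested as 1 interaction term common to both knockouts. Days 3 and 5 and both knockouts stand in for replicates there, and WT on day 0 is a single library. A p-value of this term therefore speaks of these populations only. Of 8 genes, 1 was called lower, Tgfb2, where 1.45% of all genes were. By edgeR 0 of 8 were called higher, against 3.5% of all genes, with Inhbb higher at an unadjusted p under 0.05 and by DESeq2. For Tgfb2 the term was -1.44 ± 0.25 (adjusted p 0.0273), so its rise was 2.71-fold smaller in the knockouts. In WT the Tgfb2 level on day 3 was 3.32 times (2.8 to 3.95) and on day 5 4.25 times (3.59 to 5.05) that of day 0. Per1KO reached 1.62 times (1.48 to 1.77) and 1.57 times (1.43 to 1.72), and Per2KO 1.18 times (1.08 to 1.28) and 1.26 times (1.16 to 1.38). WT had the larger ratio on both days, with intervals that did not overlap those of the knockouts. Without Per2KO the term was -1.24 and was no longer called (0.143), and without Per1KO it was -1.62 (0.021).

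The other terms did not pass. Fstl3 had -1.32 ± 0.37 (adjusted p 0.091), Inhbb 1.25 ± 0.37 (0.102) and Fst 1.06 ± 0.96 (0.549). Fstl3 in WT stood at 2.78 times (2.12 to 3.67) its day 0 level on day 3, where Per1KO had 0.92 times (0.808 to 1.05) and Per2KO 0.76 times (0.663 to 0.87). For Tgfb3 the term was 0.03 ± 0.16 (0.919), a value near 0 with a small error, whereas the error of Fst leaves a wide range. DESeq2 called Inhbb and Fstl3 as well, and the fit without the filter on low counts called Fstl3 (0.0499).

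**Figure D3:**
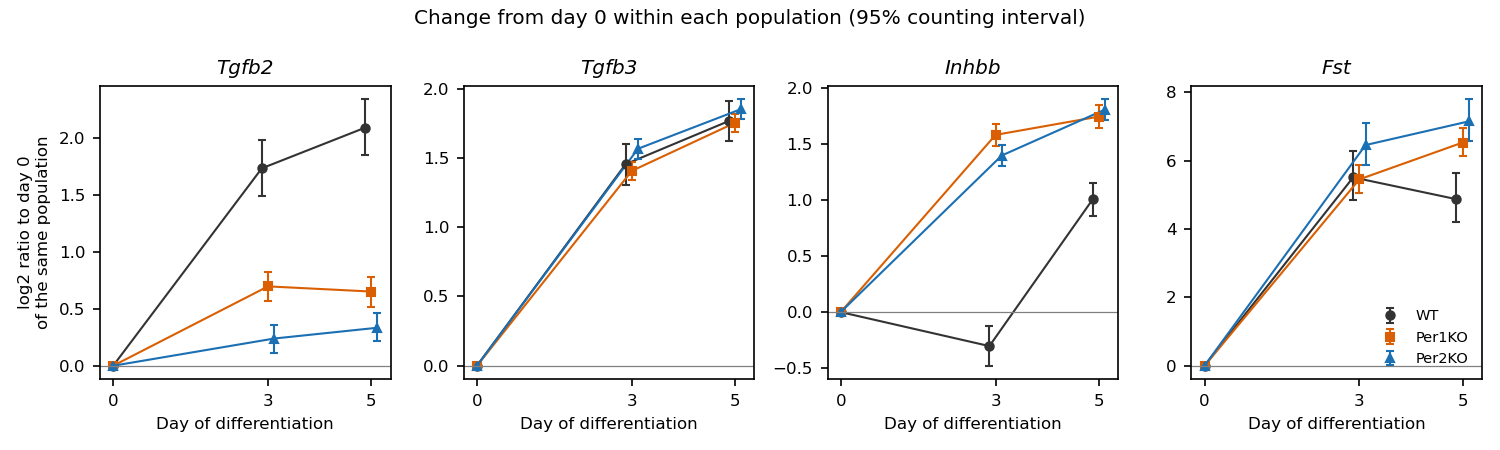
Change of Tgfb2, Tgfb3, Inhbb and Fst from day 0 of the same population, as the log2 ratio of 2 single libraries with its 95% counting interval, against the day of differentiation. WT lies above both knockouts for Tgfb2, among them for Tgfb3 and below them for Inhbb. For Fst, WT turns down after day 3 while both knockouts go on up.

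Between the knockouts, 0 of 8 genes were called by edgeR or DESeq2 (0% of all genes by edgeR, with 88 of 13324 at an unadjusted p under 0.05). Of the 8, 0 had an unadjusted p under 0.05 by edgeR and 1 by DESeq2. The log2 differences of Per1KO minus Per2KO ranged from -0.10 for Inhbb to 0.48 ± 0.36 for Fst. Single libraries of the 2 knockouts lay apart beyond counting error for several genes. On day 0, Gdf11 had 60.4 CPM in Per1KO and 35.4 CPM in Per2KO, and Tgfb1 had 56.8 and 44.7 CPM, and for both genes the intervals overlapped later. Tgfb3 was higher in Per1KO on all 3 days. Inhba was lower in Per1KO on day 0 (15 against 18 CPM) and higher on day 3 (16.7 against 13.3 CPM). Tgfb2 changed order likewise, with 16.6 in Per1KO against 19.7 CPM on day 0 and 26.9 against 23.2 CPM on day 3. On day 5, Fst had 95.5 CPM in Per1KO and 66.9 CPM in Per2KO, where Inhbb was the other way, at 78.6 and 91.4 CPM.

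Other genes of the pathway were counted by role from 4 lists. These lists too were chosen with earlier results of these data known, so their shares and medians are a description. Of the receptors and co-receptors, 6 of 8 were tested (all but Acvr1c and Tdgf1), with medians of -0.36 in Per1KO and -0.37 in Per2KO, beside the same -0.02 and -0.01 over all genes. Tgfbr1, the TGF-beta type I receptor, was called higher in Per1KO (0.61 ± 0.18, adjusted p 0.0467) and missed in Per2KO (0.57, 0.0574). On day 5 against day 0, 3 of 6 were called higher, Tgfbr1, Acvr2a and Tgfbr2, where 23.2% of all genes were. Tgfbr2, the TGF-beta type II receptor, rose most, by 1.63 ± 0.17 (0.000201), from 140 to 255 CPM on day 0 to 500 to 662 CPM on day 5. Acvr2a, the sister receptor of Acvr2b, rose by 0.71 ± 0.13 (0.00343).

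All 9 genes of Smads and intracellular inhibitors were tested, and in each knockout 1 was called higher and 1 lower, a share near those of all genes (9.26% and 10.1% in Per1KO, 9.31% and 10.6% in Per2KO). Smad2, a signal-carrying Smad, was higher (0.54 ± 0.12 and 0.48 ± 0.12, adjusted p 0.0202 and 0.0286). Skil, which represses Smad targets and is itself induced by TGF-beta, was lower (-0.46 ± 0.13 in both, 0.0424 and 0.0428). Skil was also the gene of this list called on day 5 (0.38 ± 0.13, 0.0451). The inhibitory Smad7 did not pass, with -0.68 and -0.64 (0.154 and 0.178). Smad3 was called for a differing response to differentiation (1.28 ± 0.19, 0.0155). It stood at 148, 101 and 142 CPM on days 0, 3 and 5 in WT, at 88.9, 169 and 179 CPM in Per1KO and at 86.8, 157 and 184 CPM in Per2KO, below WT on day 0 and above it afterwards.

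Of 15 genes of latency, processing and extracellular inhibition, 12 were tested, and 5 were called lower in each knockout, where 10.1% and 10.6% of all genes were. Their medians were -0.61 and -0.57, beside -0.02 and -0.01 over all genes. In both these were Tll1, Fstl1, Furin, Ltbp2 and Ltbp3. Furin cleaves TGF-beta family precursors, and the latent binding proteins LTBP2 and LTBP3 belong to the matrix. Furin was at 208 to 226 CPM in WT and 134 to 146 CPM in the knockouts, without overlap, with differences of -0.57 ± 0.10 and -0.63 ± 0.10 (adjusted p 0.00848 and 0.00497). Tll1, a tolloid protease of the family that frees myostatin from its propeptide, had the largest fitted values, -4.05 ± 0.86 and -3.45 ± 0.82 (0.0157 and 0.0233). It rests on few reads, with 9 to 20 counts in WT, 2 to 13 in Per1KO and 0 to 30 in Per2KO. Its fitted values depend on the prior count. Every knockout count of Tll1 lies under 1 CPM, so it passed the filter through the WT libraries alone. A lower call was thereby favoured in advance, and Tll1 lends no support to the count of 5. On day 5, 5 of 12 were called higher and 1 lower, beside 23.2% and 22.9% of all genes. Dcn, a proteoglycan that binds TGF-beta, rose by 5.25 ± 0.71 (0.000902) and Ltbp1 fell by 1.31 ± 0.20 on the log2 scale (0.00121). Dcn also differed in response (2.76 ± 0.35, 0.0119): it was at 51.5 CPM on day 0 in WT, 6.56 in Per1KO and 13.7 in Per2KO, and at 602, 727 and 813 CPM on day 5. Lrrc32, a cell-surface holder of latent TGF-beta, was the other gene called there (5.02 ± 0.58, 0.00968). Its fitted change from day 0 was higher in the knockouts than in WT. With 4 to 34 counts in WT it rests on few reads, and the size of that value is uncertain.

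Of 12 genes known as targets of TGF-beta or SMAD3, 11 were tested, with medians of -0.75 and -1.03 in Per1KO and Per2KO, beside -0.02 and -0.01 over all genes. In each knockout 5 were called lower, where 10.1% and 10.6% of all genes were, and 1 higher, near the 9.26% and 9.31% of all genes. Lower in both were Tgfbi, Col1a1, Pmepa1, Snai1 and Bhlhe40, and Ccn2 was higher (1.22 ± 0.25 and 1.04 ± 0.25, adjusted p 0.0133 and 0.0239). Tgfbi, named for its induction by TGF-beta, was at 3.24, 8.01 and 7.25 CPM in WT and at most 1.36 CPM in any knockout library. The WT libraries of Tgfbi were enough by themselves to pass the filter, which favours a lower call. Tgfbi therefore lends no support to the count of 5. The Tgfbi differences were -4.07 ± 0.71 and -3.38 ± 0.69 (0.00701 and 0.0128). It was the gene of this list with a differing response (-2.96 ± 0.62, 0.0435), a value that rests on knockout levels of at most 1.36 CPM. Col1a1, a fibrillar collagen gene, had -3.47 ± 0.22 and -3.31 ± 0.22 (5.88e-05 and 7.44e-05), in the libraries where the summed fibroblast markers were lower too. On day 5 against day 0, 7 of 11 were called higher, beside 23.2% of all genes. Tagln rose most (2.26 ± 0.17, 4.14e-05), though 53.8% of its 31-mers occur in Pcsk7 or Gm48529 and its count is uncertain. Of the 31-mers of Ccn2, the gene called higher in the knockouts, 11.1% occur in other genes. Called targets went in both directions, and whether the list moved as 1 group was not tested.

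**Figure D4:**
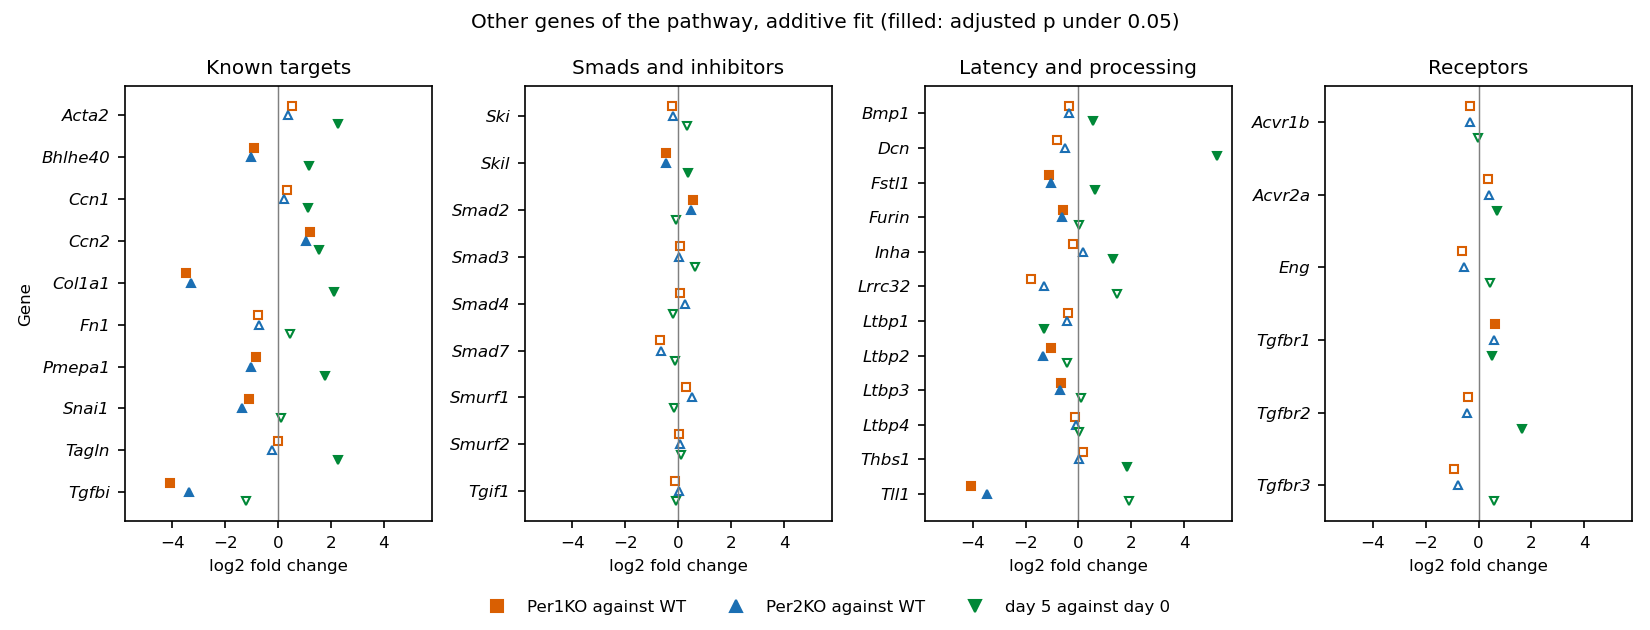
Additive log2 fold changes of tested genes of the 4 lists, for Per1KO against WT (orange squares), Per2KO against WT (blue triangles) and day 5 against day 0 (green triangles). Filled symbols passed an adjusted p of 0.05. Tgfbi, Col1a1 and Tll1 lie furthest to the left in both knockouts, and Dcn lies furthest to the right on day 5.

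The genes with the most similar pattern over the 9 libraries were found by the root mean square difference of centred log2 CPM, among 9579 genes averaging 10 CPM or more. This is a description over libraries that share populations, days and depth. For Tgfb1 the nearest were Smtn (0.08) and Gmppb (0.11), and for Tgfb3 Mief2 (0.12) and Rftn2 (0.12). Tgfb2 was nearest to Jag1 and Prag1, both at 0.21, and Fstl3 to Junb (0.15) and Opn3 (0.21). Inhbb was nearest to Fcgrt (0.19) and Bmper (0.22), and Fst to Tceal7 (0.22) and Trim63 (0.32). None of these nearest genes is among the 10 genes. Gdf11 and Inhba spanned 0.88 and 0.93 on the log2 scale over all libraries, too little for a pattern to be matched.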

How the data were processed

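Per the labels, TruSeq libraries of poly(A) RNA were read from 1 end on a HiSeq instrument. The submitters' processing notes name CASAVA 1.8, HISAT2 2.1.0 and mm10. The counting program, annotation and use of strand are not given in the sources used here. The authors deposited whole-number counts per Ensembl gene (47729 genes, 0 rows that name no gene), of which 47224 matched a symbol. Positions and lengths come from GENCODE M21 (GRCm38) and promoters from RefSeq.

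Genes reaching 1 CPM in 3 or more of the 9 libraries were tested with edgeR 4.0.16 (R 4.3.3, limma 3.58.1; TMM, quasi-likelihood, Benjamini-Hochberg), with 4 residual degrees of freedom in the additive model and 3 with the interaction term. Standard errors came from the F statistic. Ratios of 2 libraries carry exact 95% counting intervals and no test. Similar patterns used log2 CPM with a prior count of 2. Alternatives were DESeq2 1.42.0, 2 other scalings, no filter, knockout libraries thinned to 5855229 counts, fewer libraries, and leaving out each day or population.

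Members and lists were chosen with earlier results of these data known. Named from each list were the largest rise and fall called in each knockout and on day 5, and any further list gene was picked with its values in view. A result for 1 gene of the target list is not reported here, and the figure of the lists leaves that gene out.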

Additional observations from a re-analysis of the deposited data

Results flagged for a closer look

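The response of Tgfb2 to differentiation differed between the knockouts and WT by the test of the difference itself. Days and knockouts stand in for replicates in that test. Its WT baseline is the single library of day 0, which no alternative left out. The change from day 0 to days 3 and 5 was -1.44 ± 0.25 on the log2 scale in the knockouts relative to WT (edgeR, adjusted p 0.0273). The values over the 7 alternatives ranged from -1.24 to -1.62, with 1 of them, the fit without Per2KO, no longer past the threshold.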

How the results depend on the processing

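Of 328 alternative values of single genes, 276 kept their direction and side of the threshold, 29 lost the call, 12 gained it and 11 changed sign. Of 16 called values 0 changed sign, and 6 were called under every alternative run: Tgfb1 and Tgfb3 in Per2KO, and Fst and Tgfb3 on both days. The cause of these changes was not tested.

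Members called in Per1KO (4) numbered 0 to 4 when 1 day was left out. In Per2KO (5) they were 3 without the filter, 3 with thinned libraries, 2 with the 6 libraries compared and 3 to 4 when 1 day was left out. For day 3 (2), DESeq2 gave 4 and the knockout libraries alone 4. For day 5 (4), leaving out a knockout gave 2 to 3. Between days 5 and 3 (0), DESeq2 gave 1 and the knockout libraries alone 2. The interaction (1) gave 2 without the filter, 3 with DESeq2 and 0 to 1 when a knockout was left out.

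Over all genes, Per1KO against WT (2575) gave 1391 with 6 libraries and 780 to 2814 when 1 day was left out, and Per2KO (2652) gave 1263 and 855 to 3138. Per1KO against Per2KO (0) gave 1 without the filter and 1 with DESeq2. Day 3 (4664) gave 7684 with the knockouts alone and 1147 to 1444 without 1 knockout, and day 5 (6149) gave 2348 to 2993. Day 5 against day 3 (238) gave 370 without the filter, 728 with DESeq2, 1393 with the knockouts alone and 0 to 0 without 1 knockout. The interaction (659) gave 1464 with DESeq2 and 219 to 486 without 1 knockout.

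Sign changes concerned uncalled values. Inhba in Per1KO gave 0.01 with upper-quartile scaling, 0.06 without the filter and -0.24 to 0.19 when 1 day was left out, and in Per2KO 0.00 without the filter and -0.24 to 0.16. Gdf11 in Per2KO gave -0.30 to 0.14. With the knockouts alone, day 3 gave -0.26 for Fstl3 and -0.04 for Tgfb1, and day 5 gave 0.05 for Gdf11. The interaction without 1 knockout gave -0.42 to 0.08 for Inhba and -0.03 to 0.10 for Tgfb3. CPM by total counts put 16 of 90 levels outside their counting interval, by at most 1.1 times. The labels carry no replicate numbers, and libraries of the same day were matched by the day term of the additive model, also in the fits of the 6 libraries compared. The WT depth limits Fst on day 0, Acvr2b and Mstn most.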
